A study of Homo sapiens with 8 samples.

Results

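A set of 10 genes around the transcriptional co-activators YAP and TAZ was followed in human embryonic stem cells on a soft and on a stiff gel. The genes were taken by symbol from the 29145 gene symbols of the day 0 table and the 30179 of the day 3.5 table, and all 10 were found, each in 1 row of both tables and at the same locus. They comprise YAP1, WWTR1 (which encodes TAZ), the angiomotin genes AMOT, AMOTL1 and AMOTL2, the kinase gene LATS2, and the target genes CTGF (now CCN2), CYR61 (now CCN1), ANKRD1 and AXL. RNA came from the H9 line, 8 libraries in 4 groups of 2. The soft gel had a stiffness of 400 Pa and the stiff gel one of 60 kPa, and the medium had been conditioned by feeder cells. On each gel 1 group was undifferentiated (day 0) and 1 had been induced towards mesoderm with bFgf, Activin, VEGF and BMP4 (day 3.5). H9 is 1 established cell line, and the labels do not tell whether both libraries of a group were separate cultures. The p-values may therefore measure only technical spread.

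YAP and TAZ are carried into the nucleus when the Hippo kinases are inactive, and there they bind DNA through the TEAD factors. The kinases LATS1 and LATS2 phosphorylate both proteins, which holds them in the cytoplasm, and angiomotins bind them at cell junctions and actin filaments. In many cell types a stiff substrate and a spread cell shape favour nuclear YAP and TAZ, while in pluripotent cells the pathway also takes part in the choice between self-renewal and lineage entry. Its activity is set largely by where the proteins are, which transcript levels do not measure.

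Levels are FPKM (fragments per kilobase of transcript, scaled to the total of mapped fragments), 1 value per group from the authors' tables, so no spread between libraries stands behind a single level and read depth is unknown. A gene was called at q below 0.05 in the authors' deposited table, among genes tested there with an FPKM of at least 1 on either gel. The standard error (SE) of a log2 ratio is the deposited ratio divided by the deposited statistic, an approximation. Read as a normal score, that statistic gave a p below 0.05 for 64 genes at day 0 and 316 at day 3.5. The deposited p was below 0.05 for 295 and 973 genes. Intervals from this SE are thus generally wider than the deposited p-values imply. The day 0 header names its values FPKM, and the day 3.5 values, whose header names no unit, were taken as FPKM from the matching layout. The tables of the 2 days were made separately, so days are set side by side without a test. The 10 loci with the highest FPKM held 44.9% to 52.1% of the summed FPKM of a group.

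Pluripotency and mesoderm markers were read as a check of the 2 stages. The 8 pluripotency markers summed to 1908 FPKM on the soft gel and 2038 on the stiff gel before induction, then to 541 and 859. The 9 mesoderm markers with a row in the tables summed to 10.5 and 14.9 FPKM at day 0, nearly all from KDR, with GATA4 listed at 0 on 400 Pa, and to 162 and 51.6 at day 3.5. Markers of another lineage were present too. The 7 neuroectoderm markers summed to 155 FPKM on the soft gel and 90.2 on the stiff gel before induction, then to 98.5 and 247. Most of each sum came from OTX2, with 136 FPKM (soft) and 82.2 (stiff) before induction, then 69.3 and 152. Sums of different marker lists do not measure the share of a lineage. Before induction OTX2, HESX1 and LHX5 lay on the soft side at p = 0.0074, p = 0.0086 and p = 0.00485 in the authors' deposited table, none of them called. TFAP2A, a factor of amnion and trophoblast, was called at day 0, with 2.41 FPKM on the soft gel and 0.465 on the stiff gel (q = 0.0390 in the authors' deposited table). The SE of its log2 ratio was large, at 1.98. KRT7 and KRT18 of the same marker list were tested too and not called. KRT7 lay on the soft side (10.7 and 6.62 FPKM) and KRT18 on the stiff side (63.2 and 73.7).

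**Figure D1:**
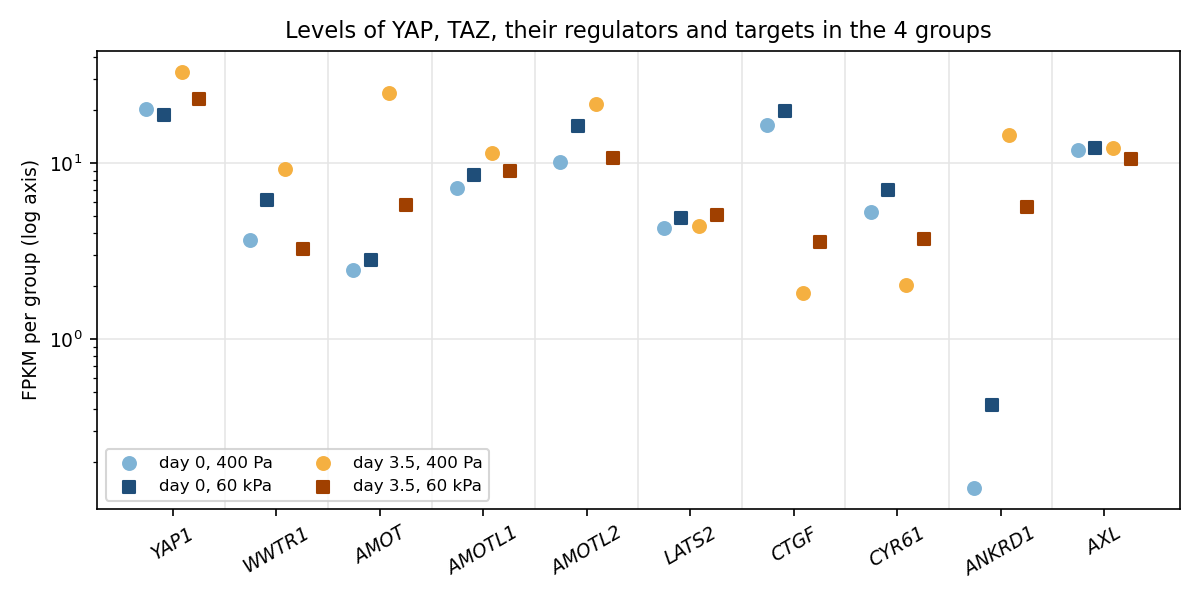
FPKM of the 10 genes in the 4 groups, on a log axis; each point is the authors' single value for a group of 2 libraries, circles for 400 Pa and squares for 60 kPa, blue for day 0 and orange or brown for day 3.5. ANKRD1 lies below 1 FPKM before induction and reaches 14.4 and 5.65 after it, CTGF takes the reverse course, and LATS2 and AXL stay nearly level.

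In the undifferentiated cells none of the 9 tested genes was called between the gels in the authors' deposited table, against 0.150% of the 15297 genes tested. AMOTL2 alone had an unadjusted p below 0.05 (0.031 in the authors' deposited table), a mark that 1.93% of all genes reached. Of the 9, 8 lay lower on the soft gel and YAP1 higher, where 54.3% of all genes lay higher on the soft gel. The median change was -0.22 on the log2(FPKM + 1) scale against 0.03 for all genes. ANKRD1 was too low to be tested by the authors.

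At day 3.5 AMOT was the 1 gene of 10 called in the authors' deposited table, higher on the soft gel. Calls made up 1.40% of the 16130 genes tested, and calls higher on 400 Pa 1.17%. An unadjusted p below 0.05 was reached by AMOT, WWTR1, ANKRD1 and AMOTL2, all higher on 400 Pa, which is 4 of 10 against 6.03% of all genes. The median change of the 10 was 0.41 against 0.04 for all genes, with 7 above and 3 below 0, where 54.8% of all genes lay above 0. CTGF, CYR61 and LATS2 were the 3 on the stiff side.

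**Figure D2:**
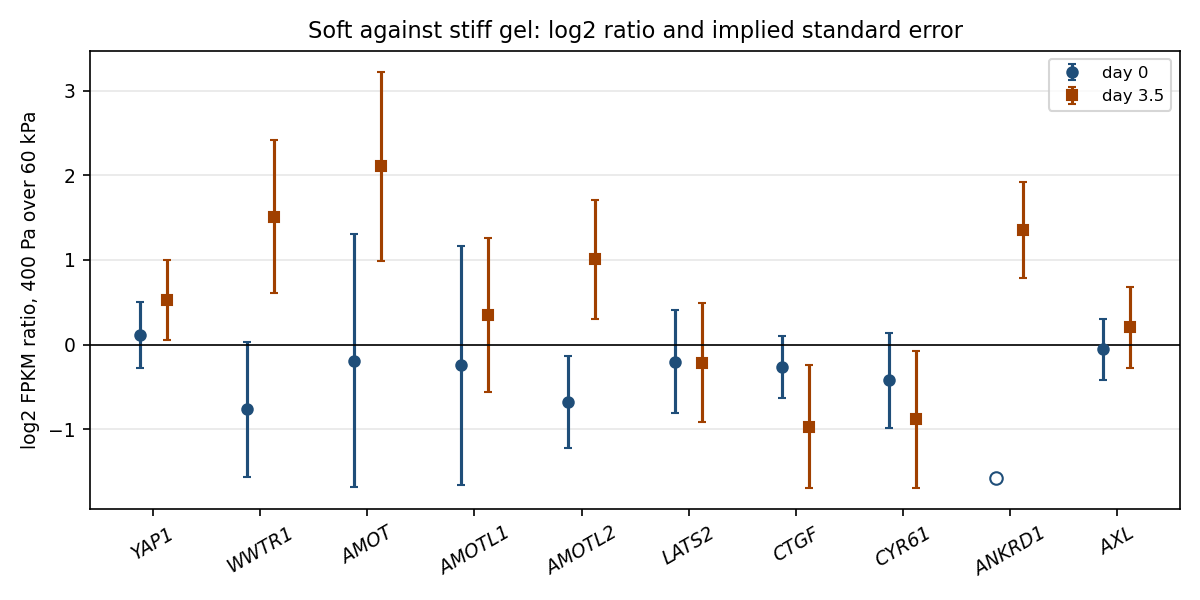
The log2 ratio of FPKM on 400 Pa over 60 kPa for each gene, day 0 as circles and day 3.5 as squares, with bars of 1 implied SE; the open circle is ANKRD1 at day 0, which the authors did not test. WWTR1, AMOT and AMOTL2 lie below 0 at day 0 and above 0 at day 3.5, while CTGF and CYR61 lie below 0 on both days.

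YAP1 encodes the co-activator YAP (chr11:101981133-102104483 of hg19 in the authors' tables). At day 0 the soft gel gave 20.3 FPKM and the stiff gel 18.7, and at day 3.5 they gave 33.2 and 23.1. It was the highest of the 10 genes in 3 groups and came after CTGF on 60 kPa at day 0. The log2 ratio of soft over stiff was 0.12 (SE 0.39) at day 0 and 0.53 (SE 0.47) at day 3.5, with p = 0.0704 and q = 0.99998 in the authors' deposited table for the later day. The 95% interval at day 3.5 ran from -0.40 to 1.45.

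WWTR1 encodes TAZ, the paralog of YAP (chr3:149234928-149454501 of hg19). Undifferentiated cells had 3.66 FPKM on the soft gel and 6.21 on the stiff gel. At day 3.5 the order was the other way round, with 9.30 and 3.27. The gel with the higher level thus changed between the days. The log2 ratio of soft over stiff was -0.76 (SE 0.79) and then 1.51 (SE 0.90). Neither was called, with p = 0.0029 and q = 0.158 at day 3.5 in the authors' deposited table. YAP1 exceeded WWTR1 in FPKM 5.54-fold on 400 Pa and 3.01-fold on 60 kPa at day 0, and 3.57-fold and 7.06-fold at day 3.5. An antisense gene overlaps WWTR1 in the reference annotation, and the same holds for YAP1, CTGF, AMOTL1, LATS2 and AXL, 6 of the 10 genes. Whether the authors counted by strand is not given in the sources used here. Each of these genes and its antisense gene therefore cannot be told apart.

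The angiomotins are scaffold proteins that hold YAP and TAZ at junctions and on actin. AMOT (chrX:112017731-112084043 of hg19) had 2.45 FPKM on the soft gel and 2.79 on the stiff gel at day 0, then 24.98 and 5.79 at day 3.5. One group, the induced cells on the soft gel, thus stood above the other 3. At day 3.5 it was 4.31-fold higher on 400 Pa (log2 ratio 2.11, SE 1.11), with p = 0.0002 and q = 0.0231 in the authors' deposited table. Among all genes tested that day, 99.0% had a smaller change.

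The call of AMOT has limits that the deposited values show. Its statistic of 1.89 in size in the authors' deposited table gives a two-sided normal p of 0.0586, and the 95% interval of the log2 ratio ran from -0.08 to 4.29. ANKRD1, with a normal p of 0.0175, would be past 0.05 in that reading in place of AMOT. The normal p is unadjusted, unlike q, and 316 of the 16130 genes tested that day had one below 0.05. A deposited p below 0.05 was reached by 973 of them, so this gap is not particular to AMOT. AMOT also holds the small RNA gene MIR4329 in the reference annotation, whose part in the FPKM was not measured.

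AMOTL2 (chr3:134070298-134094321 of hg19) is an angiomotin and is also known as a target gene of YAP. Its level before induction was 10.1 FPKM on the soft gel and 16.2 on the stiff gel, and after induction 21.7 and 10.8. As for WWTR1, the stiff gel was higher before induction and the soft gel after it. The log2 ratio of soft over stiff was -0.67 (SE 0.54) and 1.01 (SE 0.70). At day 3.5 it had p = 0.005 and q = 0.219 in the authors' deposited table. MIR6827 and RPL39P5 overlap AMOTL2 on its own strand in the reference annotation. AMOTL1 (chr11:94277006-94658686 of hg19) had 7.21 FPKM on the soft gel and 8.54 on the stiff gel before induction, then 11.5 and 9.03. Its log2 ratio of 0.35 at day 3.5 was smaller than the SE of 0.91. The AMOTL1 locus in the tables spans 382 kb against 170.3 kb for the gene in RefSeq, so other transcripts may share its value.

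Summed over the family, angiomotin FPKM came to 19.8 on the soft gel and 27.5 on the stiff gel before induction, then to 58.2 and 25.6. AMOT made up 12.4% and 10.2% of that sum at day 0, and 43.0% and 22.6% at day 3.5. AMOTL2 held the largest share in 3 groups, and AMOT did in the induced cells on the soft gel.

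LATS2 phosphorylates YAP and TAZ and is itself a target gene of theirs (chr13:21547171-21635686 of hg19). Levels were 4.26 FPKM (soft) and 4.90 (stiff) before induction, then 4.39 and 5.08. The 4 groups lay within 1.19-fold of each other. The log2 ratio of soft over stiff was -0.20 (SE 0.61) at day 0 and -0.21 (SE 0.71) at day 3.5, with a 95% interval from -1.59 to 1.17 at the later day. That interval holds differences of more than 2-fold either way.

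CTGF and CYR61 encode secreted CCN proteins of the matrix and are the target genes most often used as a readout of YAP and TAZ. CTGF (chr6:132268545-132398533 of hg19) had 16.4 FPKM on the soft gel and 19.8 on the stiff gel before induction, but 1.83 and 3.58 after it. It was among the 2 highest of the 10 genes at day 0 and among the 2 lowest at day 3.5. CYR61 (chr1:86046444-86050115 of hg19) had 5.30 FPKM (soft) and 7.08 (stiff) before induction, then 2.02 and 3.71. Both were lower on the soft gel on both days, and neither was called on either day. At day 3.5 the log2 ratio of soft over stiff was -0.96 (SE 0.73) for CTGF and -0.88 (SE 0.81) for CYR61, with p = 0.0597 and p = 0.089 in the authors' deposited table. The CTGF locus in the tables spans 130.0 kb against 3.20 kb for the gene in RefSeq, and an antisense gene overlaps it. Its value may therefore include other transcripts.

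ANKRD1 encodes a cardiac and muscle ankyrin repeat protein and is another common readout of YAP (chr10:92671853-92681033 of hg19). Its day 0 level was 0.141 FPKM on the soft gel and 0.419 on the stiff gel, and its day 3.5 level 14.4 and 5.65. Both induced groups stood above both undifferentiated groups. At day 3.5 it was 2.56-fold higher on the soft gel (log2 ratio 1.36, SE 0.57, 95% interval 0.24 to 2.47), with p = 0.0013 and q = 0.0899 in the authors' deposited table. It thus missed the threshold. No small RNA gene or antisense gene overlaps ANKRD1 in the reference annotation.

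AXL, a receptor tyrosine kinase and target gene (chr19:41725010-41767749 of hg19), had 11.8 FPKM (soft) and 12.3 (stiff) before induction, then 12.2 and 10.6. The 4 groups lay within 1.16-fold. The 95% interval of its log2 ratio at day 3.5 ran from -0.74 to 1.15.

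CTGF and ANKRD1 took opposite courses between the days, so their upstream sequence is shown: the 250 bases before the gene's start, from RefSeq on GRCh38.p14, 5′ to 3′ on the gene's strand. Capitals mark GGAATG, the core motif of TEAD factors, searched on both strands (as GGAATG or CATTCC). CTGF lies at chr6:131951373-131951622 and ANKRD1 at chr10:90921088-90921337, both on the minus strand.
CTGF: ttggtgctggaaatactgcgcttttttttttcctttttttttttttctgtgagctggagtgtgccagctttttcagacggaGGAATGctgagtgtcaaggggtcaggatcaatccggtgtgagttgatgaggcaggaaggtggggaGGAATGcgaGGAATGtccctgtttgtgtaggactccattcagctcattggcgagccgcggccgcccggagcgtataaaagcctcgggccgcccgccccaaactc
ANKRD1: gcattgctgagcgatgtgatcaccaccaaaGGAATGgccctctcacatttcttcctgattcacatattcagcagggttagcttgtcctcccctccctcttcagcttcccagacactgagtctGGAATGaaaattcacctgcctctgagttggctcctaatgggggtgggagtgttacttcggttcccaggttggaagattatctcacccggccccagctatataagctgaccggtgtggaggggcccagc

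The CTGF window holds 3 matches, whose first bases lie 169, 104 and 95 bases before the start, and the ANKRD1 window holds 2, at 220 and 128. At least 1 match occurred in 11.9% of all 35116 windows of this length, at least 2 in 0.940% and at least 3 in 0.0826%. Windows were found for 9 of the 10 genes, all but CYR61. YAP1, AMOTL2 and AXL had 1 match each, in 1 of the 2 windows of AMOTL2 and of AXL. No match was found in the windows of WWTR1, AMOT, AMOTL1 and LATS2. Genes with a match thus include the lowest and the highest of the 10 in the comparison of days, and a match is a description of these letters only.

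The test of the gel difference between days called none of the 9 genes tested on both, against 0.0770% of 14286 genes. It combined both deposited log2 ratios with their implied errors (normal approximation, Benjamini-Hochberg adjusted over all genes). The log2 ratio of soft over stiff was higher at day 3.5 than at day 0 by 2.27 (SE 1.20) for WWTR1, by 1.69 (SE 0.89) for AMOTL2 and by 2.30 (SE 1.86) for AMOT. Their unadjusted p-values were 0.0587, 0.0572 and 0.218, and the adjusted p was 0.99998 for each of the 9. Of all 14286 genes, 0.903% had an unadjusted p below 0.05 in this test, so it seldom reached that mark with the implied errors. It therefore does not settle whether these genes turned from the stiff to the soft side.

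**Figure D3:**
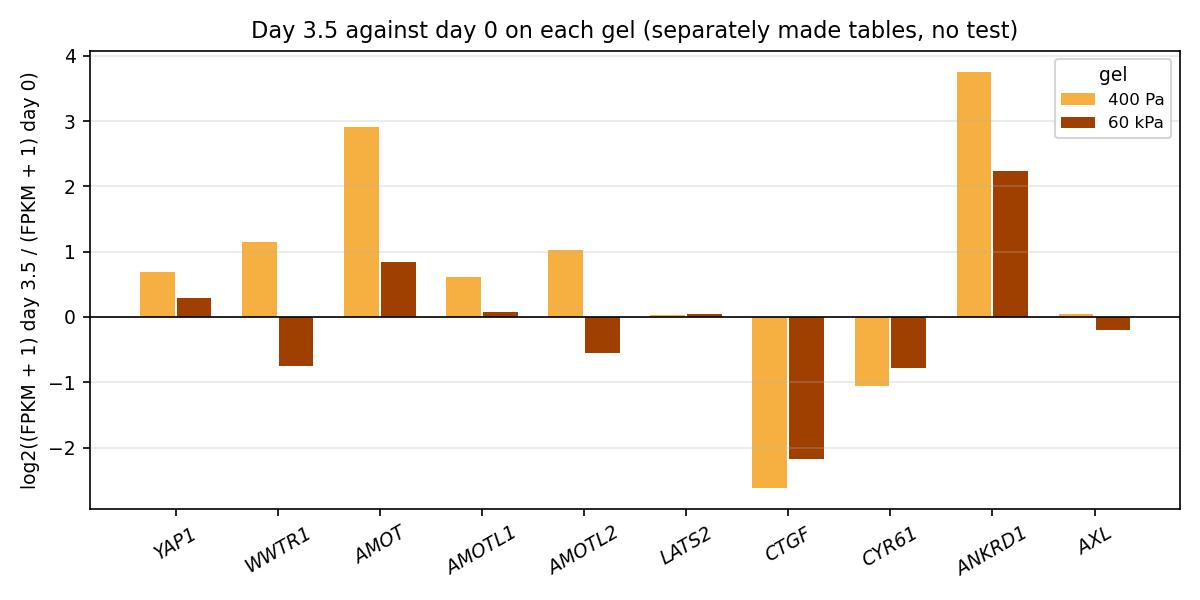
The difference in log2(FPKM + 1) between day 3.5 and day 0 for each gene, yellow bars for 400 Pa and brown bars for 60 kPa, from separately made tables and with no error. ANKRD1 and AMOT have the tallest bars upward and CTGF the longest downward on the soft gel, while WWTR1 and AMOTL2 point up on 400 Pa and down on 60 kPa.

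Set side by side across the days, ANKRD1 had the highest and CTGF the lowest difference of the 10 genes on both gels, and on the soft gel AMOT lay between them in size. On the log2(FPKM + 1) scale ANKRD1 was higher at day 3.5 by 3.76 on 400 Pa and by 2.23 on 60 kPa. Of 16896 genes, 99.5% and 99.0% had a smaller value on the 2 gels. CTGF had values of -2.62 on 400 Pa and -2.18 on 60 kPa, and 0.444% and 0.497% of the genes had lower ones. In FPKM that is 8.98-fold and 5.53-fold less at day 3.5.

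On the soft gel, 4 of the 10 genes were higher at day 3.5 by at least 1 log2 unit (ANKRD1, AMOT, WWTR1 and AMOTL2), as were 9.17% of all genes. On the stiff gel ANKRD1 alone was, as were 6.28% of all genes. CTGF and CYR61 were lower by at least 1 unit on the soft gel, as were 5.72% of all genes, and CTGF alone on the stiff gel, as were 3.92%. CYR61 had values of -1.06 on 400 Pa and -0.78 on 60 kPa. AMOT had values of 2.91 and 0.84, WWTR1 of 1.15 and -0.76, and AMOTL2 of 1.03 and -0.55. The median over all genes was 0 on 400 Pa and 0.01 on 60 kPa, so the scale of the tables differed little for the typical gene. These are differences between tables with no test.

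CTGF and CYR61 also lost their difference in level from each other. CTGF was 3.10-fold above CYR61 in FPKM on 400 Pa and 2.79-fold on 60 kPa at day 0. At day 3.5 the quotients were 0.909 and 0.965.

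Likeness of pattern was measured as the distance between the 4 group levels on the log2(FPKM + 1) scale, each gene centred on its own mean, over 11415 other genes with at least 5 FPKM in a group. The genes nearest to CTGF were CHGA (distance 0.0802), RP11-248B24.4 (0.146) and ESRG (0.169). ESRG, a noncoding RNA known from embryonic stem cells, had 64.0 FPKM (soft) and 78.3 (stiff) before induction, then 11.2 and 17.9. CHGA, which encodes the secretory granule protein chromogranin A, had 10.3 and 11.8, then 0.855 and 2.04. The genes nearest to AMOTL2 were EVA1B (0.0194), SGK1 (0.0495) and PSME2P2 (0.119). SGK1, a serum- and glucocorticoid-induced kinase, had 9.63 FPKM (soft) and 15.8 (stiff) before induction, then 21.7 and 10.4. Among the 10 genes themselves, the nearest pair was WWTR1 and AMOTL2 (0.233) and the farthest CTGF and ANKRD1 (5.56). With 4 points a gene, these distances describe order and size only.

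The DNA-binding partners were expressed in every group. TEAD1 to TEAD4 summed to between 88.0 and 94.4 FPKM in the 4 groups. TEAD2 was the highest of them, with 63.3 FPKM on the soft gel and 54.0 on the stiff gel before induction. None of the 6 TEAD and VGLL genes tested at day 0 was called in the authors' deposited table, against 0.150% of all genes. TEAD4 was at 13.96 FPKM (soft) and 18.4 (stiff), a change of -0.38, and TEAD1 at 8.80 and 10.04. At day 3.5, 1 of 8 was called there, against 1.40% of all genes. VGLL2, a vestigial-like cofactor of the TEAD factors, had 6.78 FPKM on the soft gel and 1.43 on the stiff gel (change 1.68; SE of the ratio 0.78; q = 0.0323 there). TEAD1 was at 19.1 and 15.8 FPKM and TEAD3 at 9.42 and 8.38. The median change of the list was -0.11 at day 0 and 0.14 at day 3.5.

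The Hippo kinase core (8 of 10 listed genes measured) had no call on either day in the authors' deposited tables. Calls made up 0.150% of all genes tested at day 0 and 1.40% at day 3.5, so a list this short would seldom hold one. It holds the kinases STK3, STK4, LATS1 and the TAOK family with the adaptors SAV1 and MOB1A. The 8 changes ran from -0.04 to 0.27 at day 0 and from -0.79 to 0.14 at day 3.5, medians 0.05 and -0.15. SAV1, the adaptor of STK3 and STK4, had 28.9 FPKM (soft) and 23.8 (stiff) before induction, then 22.2 and 26.1. STK3 had 13.6 and 12.8 before induction, and TAOK2 8.96 and 8.12. LATS1, the paralog of LATS2, was at 7.69 and 8.91 FPKM at day 3.5. TAOK3, at 2.64 and 5.29, had the lowest change, with an SE of 3.82.

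Of the upstream and junction genes, 15 of 16 were measured, and these had no call on either day either. The shares over all genes were 0.150% at day 0 and 1.40% at day 3.5. CRB3 had 7.18 FPKM (soft) and 5.69 (stiff) before induction, MPP5 9.23 and 10.5, and WWC1, which encodes the LATS activator KIBRA, 14.998 and 16.999. The medians of the list were 0.08 and 0.20, and the changes at day 3.5 ran from -0.69 to 1.05. The scaffold gene WTIP had 8.52 FPKM on the soft gel and 3.60 on the stiff gel after induction, WWC1 had 13.4 and 6.89, and FRMD6 had 21.1 and 11.9. FRMD6 had p = 0.0467 and q = 0.869 in the authors' deposited table. FAT4, an atypical cadherin named here after its values were seen, lay on the stiff side at day 3.5, with 2.39 FPKM (soft) and 4.48 (stiff), p = 0.0098 and q = 0.349 in the authors' deposited table. These 2 were the upstream genes with an unadjusted p below 0.05 on that day.

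Other target genes of YAP and TAZ lay on both sides of 0. IGFBP3, which binds insulin-like growth factors, had 7.99 FPKM (soft) and 3.32 (stiff) before induction, with p = 0.00085 but q = 0.394 in the authors' deposited table. At day 3.5, 1 of 16 was called, against 1.40% of all genes. This was IGFBP3, higher on the soft gel at 98.2 and 9.94 FPKM (q = 0.00783 in the authors' deposited table). MYOF, a membrane repair gene, had 4.77 FPKM (soft) and 7.07 (stiff) before induction, then 13.1 and 6.64. Its later p was 0.00505 and q 0.221 in the authors' deposited table. FJX1 had 8.95 and 20.6 after induction (p = 0.01405 and q = 0.435 in the authors' deposited table), and CRIM1 15.3 and 13.3 before it. At day 3.5, 10 of the 16 lay above 0, with a median of 0.26.

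Relatives of single genes were also read. Of the other CCN genes NOV, WISP1, WISP2 and WISP3, WISP1 was the 1 to pass the FPKM minimum, at 1.13 on 400 Pa and 0.117 on 60 kPa at day 3.5. It had p = 0.0037 and q = 0.183 in the authors' deposited table, with an SE of 3.91. The receptors TYRO3 and MERTK, which form a family with AXL, and the ligands GAS6 and PROS1 had no call on either day in the authors' deposited tables. Over all genes tested, 0.150% were called at day 0 and 1.40% at day 3.5. TYRO3 was the highest of the 3 receptors, with 48.5 FPKM (soft) and 33.7 (stiff) before induction, then 52.9 and 54.6. MERTK was at 8.48 FPKM (soft) and 3.54 (stiff) after induction (change 1.06; SE of the ratio 0.70), and GAS6 at 4.89 and 9.01.

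**Figure D4:**
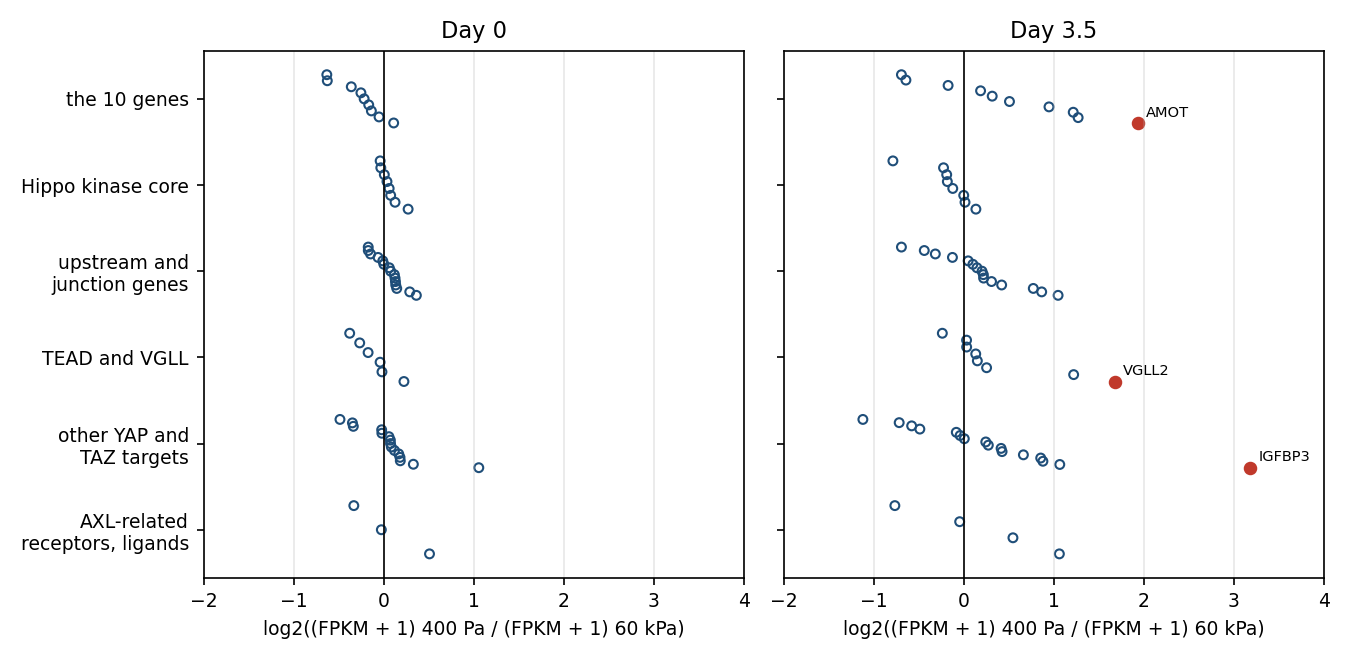
Changes on the log2(FPKM + 1) scale, 400 Pa over 60 kPa, for the tested genes reported here by group of genes at day 0 (left) and day 3.5 (right); each point is a gene, ordered by its change within a row, and filled red points were called in the authors' deposited table. The kinase core runs from -0.04 to 0.27 at day 0 and, with TAOK3 lowest, from -0.79 to 0.14 at day 3.5, and the called genes at day 3.5 are AMOT, VGLL2 and IGFBP3.

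Markers of other cell types differed between the gels at day 3.5 together with AMOT. The 8 amnion and trophoblast markers summed to 369 FPKM on 400 Pa and 119 on 60 kPa. The authors' deposited table called CDX2, VTCN1, KRT7 and ISL1, each higher on the soft gel. KRT18, not called, alone gave 173 of the 369 and 79.6 of the 119 FPKM. GATA3 and TFAP2A, on the soft side, were not called either. CGA, also not called, lay on the stiff side, at 0.242 FPKM (soft) and 1.03 (stiff). The 9 mesoderm markers summed to 162 and 51.6 there, with HAND1 and TBX3 called on the soft side. The 6 fibroblast markers summed to 240.4 and 65.6, with LUM, DCN and COL3A1 called on the soft side. LUM alone gave 136 of the 240.4 FPKM, and the other 3 (COL1A2, THY1 and PDGFRB) had changes of -0.40, -0.07 and -0.34. Of the neuroectoderm markers, OTX2, HESX1 and LHX5 were called on the stiff side. No marker of these lists was listed at 0 at day 3.5. The part of these markers in the changes of AMOT, WWTR1, AMOTL2 and ANKRD1 was not tested. In bulk samples a change in the share of a cell type and a change in RNA per cell cannot be told apart.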

How the data were processed

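Per the labels' protocols, total RNA was recovered with TRIzol and made into Illumina libraries. Per the submitters' processing notes, the authors used Cufflinks on hg19; the sources used here name no version, aligner, annotation or strand setting. Each deposited table holds 1 value per group, named FPKM in the day 0 header and taken as FPKM at day 3.5, where the header names no unit, and the authors' log2 ratio of 60 kPa over 400 Pa, test statistic (a score), p-value and q-value. Libraries were not analysed singly, so limma was not run, and the authors' comparison served as the test, as the design foresaw.

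A change is the difference of log2(FPKM + 1), soft minus stiff, which understates low genes. Ratios with an SE carry no pseudocount. Counts across all genes take each symbol once (its row of highest mean FPKM), tested and with FPKM of at least 1 on a gel. Named genes of the other lists are those called and the 3 largest changes with FPKM of at least 5. WISP1, FAT4, LHX5 at day 0, and COL1A2, THY1, PDGFRB, KRT18, GATA3, TFAP2A and CGA at day 3.5 were added after their values were seen. Some genes of the lists are not reported here and are left out of their counts, medians and plot, so no count of day 0 calls is given for the other target genes. The 10 genes and the lists were chosen with earlier results of these data known. Listed genes without a row of that symbol were not analysed here. Loci are written 1-based. GENCODE release 29 was used for overlapping genes, with none of its coordinates. The test between days was tested on simulated data drawn with the same implied errors, which cannot check whether these errors fit the data. Scripts ran on Python 3.11.15 with numpy 2.4.6, pandas 2.3.3, matplotlib 3.10.9 and scipy 1.17.1.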

Additional observations from a re-analysis of the deposited data

How the results depend on the processing

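At day 3.5 the 1 called gene, AMOT, became 0 at q below 0.01, 2 at q below 0.10 (with ANKRD1) and 4 at an unadjusted p below 0.05; at day 0 the count of 0 became 1 (AMOTL2) at an unadjusted p below 0.05. Without the 4 genes that hold a small RNA gene, the day 3.5 count was 0, which must follow from leaving out AMOT. With an unadjusted normal p of the deposited statistic below 0.05 it stayed at 1, but the gene was ANKRD1. That mark is not adjusted as q is, and 316 of 16130 genes passed it, against 973 with a deposited p below 0.05. These last 2 alternatives were chosen after seeing the data. Other FPKM minimums and a new adjustment gave the same counts, and the test between days called 0 of the 9 genes it covers under each alternative run. At 1.5 log2 units 1 gene (CTGF) was lower at day 3.5 on 400 Pa, and at 0.5 units 4 were on 60 kPa (CTGF, CYR61, WWTR1 and AMOTL2). All 80 changes recomputed with other pseudocounts, centring or summed rows kept their direction. Of these settings only centring could have turned a direction. A pseudocount cannot change a sign, and each of the 10 genes has 1 row in each table. ANKRD1 at day 0 moved most, from -0.31 to -1.10 with a pseudocount of 0.1. No paired analysis was possible because the tables hold 1 value per group, and leaving out a replicate was not run for the same reason. A low level limits what a gene can show: ANKRD1 at day 0, with 0.141 FPKM on 400 Pa and 0.419 on 60 kPa, was too low for the authors' test. Read depth is unknown.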
